A study of Mus musculus with 46 samples.

Results

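In this mouse series, 10 genes of immune inhibition and T cell costimulation were followed: Havcr2, Cd274, Lgals9, Vsir, Cd200r1, Cd200r4, Cd83, Cd86, Cd80 and Cd40. They are 10 of the 46264 gene symbols in the deposited table. They were chosen by name together with their levels in the Ics experiment and across tissues, with earlier results of these data known, so their Ics differences and tissue levels are given as descriptions without a test. All 10 were in the table, and all 10 passed the expression filter in the Ics experiment. The study used mice in which autoantibodies to a laminin of the epithelial basement membrane cause a blistering disease, a model of mucous membrane pemphigoid. Blood, bone marrow neutrophils, bone marrow monocytes and skin came from mice given intravenous immunoglobulin (IVIG, pooled antibody) or phosphate-buffered saline (PBS). There were 5 IVIG and 5 PBS libraries of blood, 5 and 5 of neutrophils, 3 and 5 of monocytes, and 3 and 3 of skin. A further experiment labelled Ics had 4 unstimulated libraries at 0 h and 4 stimulated libraries each at 3 h and 6 h. Its titles carry the same 4 replicate numbers at each time, without saying what a number stands for. Its labels do not spell out Ics, name its stimulus or name its cells. Strain, genotype, age, dose and day of sampling are not given in the sources used here, nor is whether replicates were separate cultures or animals, so p-values speak only of the spread among these libraries, which may be technical.

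Myeloid cells that present antigen give T cells a costimulatory signal through CD80 and CD86, which bind CD28, and receive help through CD40, which is bound by CD40 ligand and drives the non-canonical NF-kB pathway. The same cells carry brakes: PD-L1 (gene Cd274) engages PD-1 on T cells, VISTA (Vsir) restrains T cells and myeloid cells, TIM-3 (Havcr2) dampens the cell that carries it and binds galectin-9 (Lgals9), and CD200R1 (Cd200r1) passes an inhibitory signal when CD200 is bound. PD-L1 is a classical target of interferon gamma and NF-kB signalling, and Cd200r4 codes a relative of CD200R1 that pairs with the activating adaptor DAP12 (Tyrobp). CD83 is a marker of dendritic cell maturation that limits the removal of CD86 from the cell surface.

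RefSeq promoter sequence, 250 bases before to 50 bases after the annotated start, was at hand for 6 of the 10 genes on GRCm38.p6.
The 4 printed here were chosen to show windows of genes that were higher (Havcr2, Cd274 and Cd200r4) or lower (Lgals9) after stimulation and that held different short motifs.
The capitals mark matches to a searched motif, and each sequence runs 5′ to 3′ on the gene's own strand.
Havcr2, chr11:46454681-46454980, plus strand, capitals an AP-1 match: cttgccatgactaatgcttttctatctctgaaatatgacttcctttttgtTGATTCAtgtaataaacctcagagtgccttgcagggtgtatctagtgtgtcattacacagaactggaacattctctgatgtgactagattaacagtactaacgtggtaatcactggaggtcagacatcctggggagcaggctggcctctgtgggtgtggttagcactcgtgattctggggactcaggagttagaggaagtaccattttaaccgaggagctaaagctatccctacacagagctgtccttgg
Cd274, chr19:29367188-29367487, plus strand, capitals an IRF core match on the reverse strand: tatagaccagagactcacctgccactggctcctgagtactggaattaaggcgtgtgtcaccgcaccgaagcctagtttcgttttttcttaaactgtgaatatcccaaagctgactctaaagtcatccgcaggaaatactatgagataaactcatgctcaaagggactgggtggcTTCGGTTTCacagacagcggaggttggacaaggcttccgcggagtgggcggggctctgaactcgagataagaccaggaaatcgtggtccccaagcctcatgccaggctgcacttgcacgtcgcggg
Lgals9, chr11:78984875-78985174, minus strand, capitals 2 IRF core matches on the reverse strand: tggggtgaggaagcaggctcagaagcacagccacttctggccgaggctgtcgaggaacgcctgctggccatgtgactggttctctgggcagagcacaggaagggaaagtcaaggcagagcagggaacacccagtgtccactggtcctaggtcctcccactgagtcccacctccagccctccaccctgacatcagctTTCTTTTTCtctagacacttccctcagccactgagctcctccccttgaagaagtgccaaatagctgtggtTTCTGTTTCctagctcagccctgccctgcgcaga
Cd200r4, chr16:44820478-44820777, plus strand, capitals an antioxidant response core match on the reverse strand: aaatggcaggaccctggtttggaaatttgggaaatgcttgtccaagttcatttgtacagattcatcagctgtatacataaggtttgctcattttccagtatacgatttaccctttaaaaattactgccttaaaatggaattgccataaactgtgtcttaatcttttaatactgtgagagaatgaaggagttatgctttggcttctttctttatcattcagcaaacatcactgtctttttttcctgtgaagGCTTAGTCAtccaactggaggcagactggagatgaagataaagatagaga

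Both strands of each window were searched for 5 motifs. The AP-1 motif TGANTCA was in 7.81% of the 32851 RefSeq promoters and in 2 of the 6 (Havcr2, from base -200 to -194 relative to the start, and Cd80, from -42 to -36). The IRF core GAAANNGAA was in 8.56% of all promoters and in 2 of the 6 (Cd274, from -76 to -68, and Lgals9, from -54 to -46 and from 16 to 24). The antioxidant response core TGACNNNGC, whose letters can coincide with an AP-1 match, was in 12.4% of all promoters and in 1 of the 6 (Cd200r4, from 0 to 8). The STAT motif TTCNNNGAA was in 8.3% of all promoters and the NF-kB consensus in 4.51%, and 0 of the 6 windows held either. A match is a run of letters and not a shown binding site. The windows of Cd200r4 and Cd80 lie wholly inside the GENCODE span of their gene, so each rests on 1 of the gene's possible starts.

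The TIM-3 receptor gene and the PD-L1 gene were far higher in the stimulated Ics libraries, the galectin-9 and VISTA genes were lower, and 3 of the 4 costimulatory genes (Cd83, Cd86 and Cd40) were highest at 3 h. Over the 5 inhibitory genes the median log2 difference was 1.13 at 3 h against 0 h and 1.40 at 6 h against 0 h. Over the 4 costimulatory genes it was 0.99 at 3 h and -0.20 at 6 h. Over all 14996 genes tested the median was -0.057 at 3 h and -0.06 at 6 h. Levels are CPM, the counts scaled to a common library size, with TMM factors, which allow for a few abundant genes, and each difference is a log2 value ± SE with n = 4 libraries per time. Scaling by library totals alone moved the median of all genes by -0.25 at 3 h and -0.16 at 6 h. It then split the calls over all genes (edgeR, Benjamini-Hochberg adjusted p under 0.05) into 2693 higher and 6351 lower at 3 h and 3455 and 5785 at 6 h, and at 6 h against 3 h into 3904 and 2427.

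**Figure D1:**
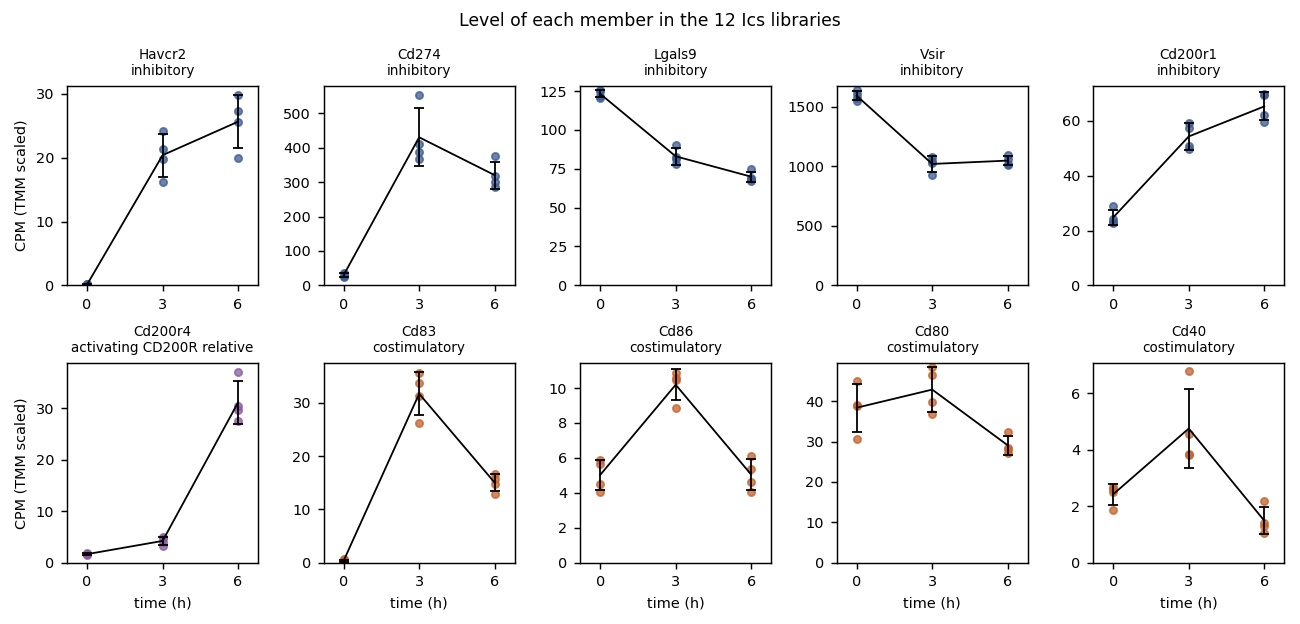
CPM (TMM scaled) of each of the 10 genes in the 12 Ics libraries against time in hours, with points for libraries, a line through the means and bars of 1 SD. Havcr2 and Cd274 stand far above their 0 h levels at both later times, Lgals9 and Vsir stand below theirs, and Cd83, Cd86 and Cd40 are highest at 3 h.

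Havcr2 (chromosome 11, 46454935 to 46481255, plus strand, GRCm38) was nearly silent in unstimulated cells. It had 0.126, 0.137, 0.206 and 0.0735 CPM in the 4 libraries at 0 h, which are 4, 4, 6 and 2 counts. At 3 h it had 16.2, 21.4, 24.2 and 19.8 CPM, and at 6 h 27.3, 25.5, 29.8 and 20.0 CPM. Every stimulated library was above every unstimulated one, and the 3 h and 6 h libraries overlapped. Taken by the replicate number in the titles, Havcr2 was higher at 6 h than at 3 h in all 4, with a smallest step from 19.8 to 20.0 CPM. The difference was 7.18 ± 0.24 at 3 h and 7.51 ± 0.24 at 6 h, or 145-fold and 182-fold, and the 6 h value was 0.33 ± 0.14 above the 3 h value. These folds rest on a starting level of a few counts, so their exact size is loosely set.

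Lgals9 (chromosome 11, 78962974 to 78984946, minus strand), which codes the TIM-3 ligand galectin-9, moved the other way from Havcr2. It had 122, 121, 125 and 125 CPM at 0 h, 81.0, 82.3, 78.2 and 90.5 CPM at 3 h, and 68.7, 68.9, 67.5 and 74.6 CPM at 6 h. The 3 times did not overlap. The difference from 0 h was -0.57 ± 0.054 at 3 h and -0.82 ± 0.0543 at 6 h. Within libraries the median Havcr2 to Lgals9 ratio went from 0.00108 at 0 h to 0.239 at 3 h and 0.384 at 6 h. The ratio compares CPM values that are not corrected for transcript length, so only its change with time can be read.

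Cd274 (chromosome 19, 29367455 to 29388095, plus strand) was already present at 0 h, at 23.1, 36.2, 33.7 and 26.5 CPM. It had 412, 389, 554 and 368 CPM at 3 h and 301, 318, 376 and 287 CPM at 6 h. The 0 h libraries were below all others, while the 3 h and 6 h libraries overlapped at 368 and 376 CPM. Taken by the replicate number in the titles, Cd274 was lower at 6 h than at 3 h in all 4. The difference from 0 h was 3.85 ± 0.16 at 3 h and 3.42 ± 0.16 at 6 h (14.4-fold and 10.7-fold), and 6 h against 3 h was -0.43 ± 0.14. With 1 library left out that last value ran from -0.51 to -0.26, the latter without 3 h replicate 3, the highest library. Of its 3558 possible 31-base stretches, 14.6% also occur in other GENCODE transcripts, most of them in AC119228.1, and the counting could have split reads between them.

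Vsir (chromosome 10, 60346851 to 60372684, plus strand) was abundant throughout and lower after stimulation. It had 1551, 1604, 1640 and 1569 CPM at 0 h, 1029, 1076, 927 and 1042 CPM at 3 h, and 1063, 1020, 1012 and 1093 CPM at 6 h. Every stimulated library was below every unstimulated one, and 3 h and 6 h overlapped. The difference was -0.64 ± 0.0515 at 3 h and -0.60 ± 0.0514 at 6 h. The median ratio of Vsir to Cd274 within a library was 53.9 at 0 h, 2.63 at 3 h and 3.37 at 6 h. Both genes code inhibitory molecules of the B7 family, and their transcripts moved in opposite directions in the same libraries.

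The CD200 receptor genes lie side by side on chromosome 16 and differed in their timing. Cd200r1 (44765736 to 44794978, plus strand), the inhibitory receptor, had 28.9, 23.3, 24.4 and 22.7 CPM at 0 h, 50.7, 59.3, 57.6 and 49.8 CPM at 3 h, and 59.6, 62.3, 69.9 and 69.4 CPM at 6 h. Its difference from 0 h was 1.13 ± 0.0903 at 3 h and 1.40 ± 0.0904 at 6 h. Cd200r4 (44811733 to 44839150, plus strand), the activating relative, had 1.77, 1.47, 1.68 and 1.62 CPM at 0 h, 3.90, 4.77, 4.93 and 3.20 CPM at 3 h, and 27.4, 29.6, 37.0 and 30.4 CPM at 6 h. Its difference from 0 h was 1.36 ± 0.16 at 3 h and 4.25 ± 0.15 at 6 h, and 6 h exceeded 3 h by 2.89 ± 0.14, or 7.41-fold. None of the 3 times overlapped for either gene. The median ratio of Cd200r4 to Cd200r1 was 0.0661 at 0 h, 0.0787 at 3 h and 0.468 at 6 h, so Cd200r4 gained on Cd200r1 mostly between 3 h and 6 h. The paralogs share sequence: 9.25% of the 2043 possible 31-base stretches of Cd200r4 and 4.09% of the 3398 of Cd200r1 occur in other genes, mainly each other and Cd200r2. With the CD200 receptor family summed, the difference was 1.14 at 3 h and 1.83 at 6 h.

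Among the costimulatory genes, Cd83 (chromosome 13, 43784775 to 43803132, plus strand) had the largest difference. It had 0.158, 0.205, 0.583 and 0.441 CPM at 0 h, 31.3, 33.7, 35.6 and 26.3 CPM at 3 h, and 12.9, 16.7, 15.8 and 14.8 CPM at 6 h. The 3 times did not overlap, and the difference from 0 h was 6.52 ± 0.24 at 3 h and 5.44 ± 0.24 at 6 h. The 0 h level rests on 5 to 17 counts per library. At 6 h against 3 h Cd83 stood at -1.08 ± 0.16 and Havcr2, which started as low, at 0.33 ± 0.14.

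Cd86 (chromosome 16, 36603869 to 36666081, minus strand), a CD28 ligand, was back within the spread of its starting level at 6 h. It had 5.87, 4.06, 4.49 and 5.66 CPM at 0 h, 10.8, 10.5, 8.86 and 10.6 CPM at 3 h, and 5.34, 4.64, 4.05 and 6.12 CPM at 6 h. The 3 h libraries were above all others, and the 0 h and 6 h libraries overlapped. The difference was 1.02 ± 0.15 at 3 h, 0.006 ± 0.155 at 6 h against 0 h and -1.02 ± 0.15 at 6 h against 3 h. The sign of the 6 h value changed when a library was left out, over a range of -0.0959 to 0.1005.

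Cd80 (chromosome 16, 38455561 to 38496335, plus strand), the other CD28 ligand, had no clear peak. It had 30.6, 38.9, 45 and 39.0 CPM at 0 h, 39.9, 46.5, 48.4 and 36.7 CPM at 3 h, and 27.2, 28.4, 28.2 and 32.4 CPM at 6 h. The 0 h libraries overlapped both later times, and 6 h lay below 3 h without overlap, at -0.56 ± 0.12. The difference from 0 h was 0.16 ± 0.11 at 3 h and -0.40 ± 0.12 at 6 h, and with library totals alone the 3 h value was -0.09. The median Cd274 to Cd80 ratio within a library was 0.752 at 0 h, 10.2 at 3 h and 11.1 at 6 h, and that of Cd274 to Cd86 was 6.09, 37.5 and 62.4. CD80 binds PD-L1 on the same cell as well as CD28 on T cells.

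Cd40 (chromosome 2, 165055627 to 165072948, plus strand), the receptor of CD40 ligand, stayed below 7 CPM at every time. It had 2.62, 1.88, 2.50 and 2.68 CPM at 0 h, 3.86, 3.80, 6.79 and 4.55 CPM at 3 h, and 1.06, 2.16, 1.40 and 1.31 CPM at 6 h. The 3 h libraries were above all others, and 0 h and 6 h overlapped at 1.88 and 2.16 CPM. The difference from 0 h was 0.97 ± 0.24 at 3 h and -0.70 ± 0.25 at 6 h, and 6 h against 3 h was -1.67 ± 0.25. At 6 h against 3 h, all 4 costimulatory genes were below zero, with a median of -1.05, and the 5 inhibitory genes ranged from -0.43 to 0.33 with a median of 0.04. The median over all genes was -0.032. In the wider lists described below it was -0.146 over 17 other inhibitory genes and -0.234 over 13 other costimulatory genes. The members were chosen with these levels known, so the contrast between their classes is a description of them. In the wider lists the medians of the classes lay close together.

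**Figure D2:**
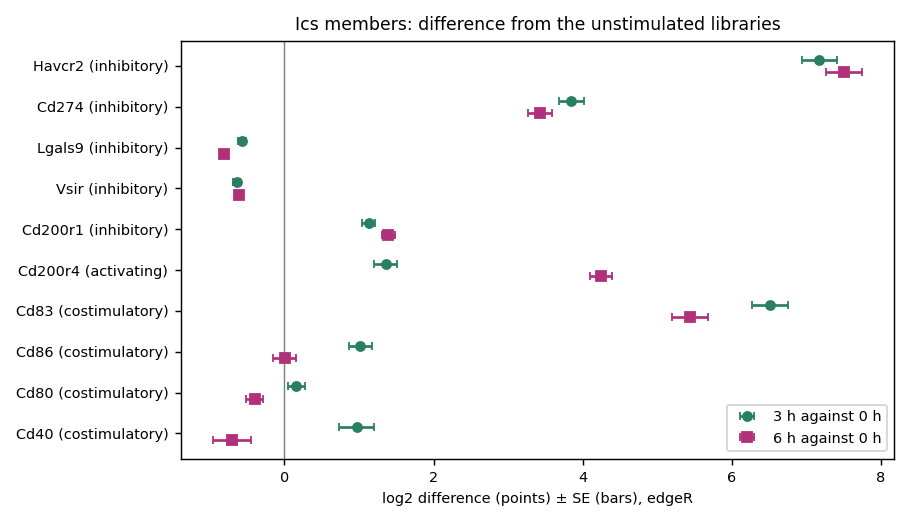
Log2 difference of each gene at 3 h (circles) and 6 h (squares) against the 4 unstimulated Ics libraries, with bars of 1 SE from edgeR. Havcr2 lies above 7 at both times, Cd200r4 moves from 1.36 to 4.25, and Cd86 moves from 1.02 to 0.006.

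Markers of cell types moved with these differences. All 12 Ics libraries held 28660 to 49450 CPM of S100a8 plus S100a9, above the limit of 10000 CPM used below for neutrophils. By that check all had a neutrophil profile, though the labels do not name the cells. The 7 neutrophil markers summed to 62200 to 70500 CPM at 0 h, 43900 to 53300 at 3 h and 40700 to 45900 at 6 h, and all 7 were at or above 1 CPM in at least 1 library at each time. The 7 monocyte and macrophage markers summed to 771 to 866, 903 to 947 and 902 to 966 CPM. Within that list Csf1r, the macrophage growth factor receptor gene, went from 139 to 178 CPM at 0 h to 386 to 433 at 3 h and 467 to 542 at 6 h, and Adgre1 (F4/80) from 27 to 32.1 CPM to 124 to 158 and 168 to 190. Ccr2, a marker of inflammatory monocytes, was at 4.75 to 7.24 CPM at 0 h and 0.576 to 1.36 at 6 h, and Irf8 was under 1 CPM in every stimulated library. The 5 dendritic cell markers summed to 3.1 to 5.56, 2.78 to 3.38 and 2.41 to 3.54 CPM, with Ccr7 and Siglech under 1 CPM at all times. The 5 B cell markers summed to at most 14.1 CPM and the 6 T and NK cell markers to at most 15.5 CPM, with Ncr1 at 0 in the stimulated libraries, and Krt5 and Krt14 of skin were at 0 throughout. The 4 skin markers together summed to 14.8 to 19.2 CPM at 0 h and 28.9 to 40.4 at 6 h, the 4 haemoglobin genes to 86.4 to 235 and 6.77 to 17.5, the 3 platelet markers to 17.3 to 29.8 and 3.58 to 7.41, and the 7 markers of eosinophils, basophils and mast cells to 15.4 to 34.2 and 5.68 to 17.1. The part of these shifts in the members' differences was not tested. In these bulk samples fewer cells of a type and less RNA per cell cannot be told apart, and with no unstimulated library at 3 h or 6 h neither can the stimulus and the time in culture.

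Other genes of these pathways were taken from 6 lists of 82 genes, chosen with earlier results of these data known, of which 67 could be tested. At 3 h 36 rose and 15 fell, or 53.7% and 22.4% of the 67, where 26.9% of all tested genes were called higher and 27.5% lower (edgeR, adjusted p under 0.05). At 6 h against 0 h 30 rose and 21 fell, or 44.8% and 31.3%, against 29.6% and 30.4% of all genes. From 3 h to 6 h 14 rose and 30 fell, or 20.9% and 44.8%, against 20.5% and 20.3% of all genes. With library totals alone the list split into 26 higher and 22 lower at 3 h, 29 and 22 at 6 h, and 18 and 26 from 3 h to 6 h. The median of the 67 was 0.32, 0.19 and -0.20. Of 12 CD40 signalling genes tested, 9 rose and 1 fell at 3 h (75% and 8.33%), with a median of 1.28. At 6 h against 0 h 8 rose and 2 fell (66.7% and 16.7%), with a median of 1.05. Relb, the non-canonical NF-kB subunit, rose by 3.75 ± 0.083, from 12.4 ± 0.325 to 167 ± 9.52 CPM (mean ± SD, n = 4; edgeR adjusted p = 7.89e-13). Its partner Nfkb2 rose by 3.57 ± 0.10, from 42.6 ± 3.23 to 504 ± 51.7 CPM. Traf3, an adaptor bound by CD40 that restrains the same pathway, rose by 1.70 ± 0.0641 at 3 h. Traf1 rose by 5.80 ± 0.25 at 3 h and 5.15 ± 0.25 at 6 h, and stood at -0.655 ± 0.18 at 6 h against 3 h. From 3 h to 6 h 1 of the 12 rose and 9 fell. Those that fell included Tnfaip3, the A20 brake on NF-kB (-1.25 ± 0.13), and Tank (-0.53 ± 0.0584). Birc3, a ubiquitin ligase bound by TRAF proteins, fell too (-0.60 ± 0.073). Map3k14 of the same list, named after its values were seen, was not called at 3 h (-0.094 ± 0.0854). At 6 h against 0 h Map3k14 was lower (-0.438 ± 0.0858). Cd40lg, which codes CD40 ligand, did not pass the expression filter, and whether CD40 was engaged was not tested.

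Of 17 other inhibitory receptor and ligand genes, 8 rose and 4 fell at 3 h, and 5 rose and 7 fell at 6 h. At 3 h these were 47.1% and 23.5%, against 26.9% and 27.5% of all genes tested. At 6 h they were 29.4% and 41.2%, against 29.6% and 30.4%. Pdcd1lg2, which codes PD-L2, the other PD-1 ligand, rose by 4.24 ± 0.27 at 3 h and 5.14 ± 0.27 at 6 h, from 0.361 ± 0.206 to 7.00 ± 1.02 and 13.0 ± 1.49 CPM (edgeR adjusted p = 7.51e-09 and 9.54e-10). Clec12a, an inhibitory lectin receptor of myeloid cells, fell by 1.38 at 3 h and 1.59 at 6 h on the log2 scale, from 263 ± 5.74 CPM. Siglece, an inhibitory sialic acid receptor, rose by 0.86 ± 0.0559 at 3 h and fell from 3 h to 6 h by 0.49. From 3 h to 6 h 3 of the 17 rose and 8 fell, or 17.6% and 47.1%, against 20.5% and 20.3% of all genes. Cd47, the ligand of SIRP alpha, fell by 0.74 and Ceacam1 by 0.32. Ceacam1 had also fallen at 6 h against 0 h by 0.51. Pdcd1 (PD-1) and Cd200, which code the partners of PD-L1 and CD200R1, did not pass the expression filter.

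Of 13 other costimulatory genes tested, 6 rose and 5 fell at 3 h, or 46.2% and 38.5%, against 26.9% and 27.5% of all genes. At 6 h 4 rose and 6 fell, or 30.8% and 46.2%, against 29.6% and 30.4%. From 3 h to 6 h 2 rose and 5 fell, or 15.4% and 38.5%, against 20.5% and 20.3%. Icosl, the ICOS ligand gene, rose by 2.36 ± 0.0648 at 3 h, from 96.6 ± 3.93 to 495 ± 44.4 CPM, and fell from 3 h to 6 h by 1.11, to 229 ± 8.50 CPM (edgeR adjusted p = 3.42e-12 and 8.63e-09). Tnfrsf8, which codes CD30, rose by 5.98 ± 0.22 at 3 h and 5.74 ± 0.22 at 6 h, from 0.213 ± 0.0297 CPM. Tnfsf13b, the B cell survival factor BAFF, fell at 6 h against 0 h by 2.36, from 52 ± 4.86 to 10.1 ± 1.99 CPM, and Cd244a, a receptor of CD48, fell at 3 h by 2.50. Tnfsf14, the cytokine LIGHT, fell from 3 h to 6 h by 0.82.

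Among 9 genes of signals upstream of PD-L1, 6 rose and 2 fell at 3 h, or 66.7% and 22.2%, against 26.9% and 27.5% of all genes. At 6 h 5 rose and 4 fell, or 55.6% and 44.4%, against 29.6% and 30.4%. From 3 h to 6 h 2 rose and 5 fell, or 22.2% and 55.6%, against 20.5% and 20.3%. Jak2 rose by 2.08 ± 0.077 at 3 h, from 138 ± 4.45 to 584 ± 63.3 CPM, and Ifngr2, a chain of the interferon gamma receptor, by 1.66 ± 0.0651 (edgeR adjusted p = 2.91e-11 and 4.61e-11). Both then stood nearer to their 0 h level at 6 h, at 1.23 ± 0.0754 and 1.23 ± 0.0645. Hif1a, the hypoxia factor, rose by 1.49 ± 0.0859 at 3 h. Irf1, which carries interferon gamma signals to the Cd274 promoter, fell from 3 h to 6 h by 1.21, from 136 ± 8.50 to 58.8 ± 3.92 CPM, and Stat3 fell at 6 h against 0 h by 0.95. Of 6 genes of surface turnover, 3 rose and 1 fell (50% and 16.7%) at both 3 h and 6 h against 0 h. The ubiquitin ligase gene Marchf1, whose product removes CD86 from the surface, fell at 3 h by 0.53 (67.0 ± 1.10 to 46.5 ± 2.30 CPM) and rose by 0.66 ± 0.0659 from 3 h to 6 h (edgeR adjusted p = 8.17e-06 and 1.98e-06), while Cd86 had its highest level at 3 h. Cmtm6, which holds PD-L1 at the surface, fell from 3 h to 6 h by 0.47, to 555 ± 27.3 CPM, and its relative Cmtm4 rose by 0.76 ± 0.23 at 3 h. Stub1, a ligase acting on PD-L1, rose by 0.61 ± 0.0817 at 6 h, and Marchf8 rose by 0.64 ± 0.0647 at 3 h and 0.48 ± 0.0646 at 6 h.

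Of 10 genes of TIM-3 and CD200 receptor signalling, 4 rose and 2 fell at 3 h, and 5 rose and 1 fell at 6 h. At 3 h these were 40% and 20%, against 26.9% and 27.5% of all genes. At 6 h they were 50% and 10%, against 29.6% and 30.4%. The adaptor genes Dok1 and Dok2, which act below CD200R1, went opposite ways at 6 h: Dok1 rose by 1.25 ± 0.12, from 15.1 ± 0.333 to 35.9 ± 3.23 CPM, and Dok2 fell by 1.53, from 22.3 ± 4.91 to 7.75 ± 0.47 CPM (edgeR adjusted p = 3.30e-07 and 1.54e-07). Inpp5d, the phosphatase SHIP1, rose by 0.90 ± 0.0712 at 3 h and fell from 3 h to 6 h by 0.56. Cd200r2, a further activating relative, rose by 2.21 ± 0.37 at 3 h and 3.42 ± 0.36 at 6 h, from 0.171 ± 0.0849 to 1.87 ± 0.346 CPM, and shares sequence with Cd200r4.

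Genes whose log2 CPM tracked a member most closely over the 12 Ics libraries were found among 8303 genes with a mean of at least 5 CPM. For Havcr2 they included Srxn1, Nadk, Ctsz and Relb, with Pearson r of 0.9965 to 0.9968. For Cd274 they included Sema4d, Icam1, Ptafr and Sh3bp5, with r of 0.9967 to 0.9983. Icam1, a ligand of leukocyte integrins, had means of 5.52, 391 and 272 CPM at the 3 times. For Cd86, whose level peaked at 3 h, they were Ss18, Hhex, Cdt1, Ift57 and Ifitm2, with r of 0.9473 to 0.9676. These correlations describe the shared time course, since libraries of 1 time share their treatment, and the genes were picked as the highest of many.

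Across the blood, cell and skin libraries, the label of each was checked against marker genes before levels were read. Of the 34 libraries, 9 had markers that went against their label: 4 of blood, 2 of neutrophils, 1 of monocytes and 2 of skin. The limits of this check were 10% of counts from haemoglobin genes, 10000 CPM of S100a8 plus S100a9 and 100 CPM of Krt5 plus Krt14, and they were set with the data known. No limit was set on monocyte markers, so a monocyte library passed by staying under these 3 limits. The libraries that passed were 6 of blood, 8 of neutrophils, 7 of monocytes and 4 of skin, and their levels follow as lowest, median and highest CPM by library totals. In blood most counts were haemoglobin, so CPM outside the 4 haemoglobin genes are given as well. Library totals ran from 18965431 to 43176537 counts.

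TIM-3 and PD-L1 transcripts were low in the neutrophil and monocyte libraries and higher in skin and in stimulated Ics cells. Havcr2 had 0.065, 0.462 and 1.08 CPM in neutrophils, 0, 0.427 and 2.49 in monocytes, and 7.6, 9.73 and 13.5 in skin. In blood it had 0.122, 0.135 and 0.382 CPM, or 1.16, 1.68 and 5.71 outside haemoglobin. In order of the median it ran from Ics at 6 h (26.2) and 3 h (18.9) through skin, neutrophils, monocytes and Ics at 0 h (0.145) to blood. Neighbours in that order overlapped except that skin lay between the stimulated Ics libraries and the neutrophils without overlap. That order uses library totals, most of which are haemoglobin in blood. Outside haemoglobin the blood libraries lay above the neutrophils and below skin without overlap, and overlapped the monocytes. In monocytes Havcr2 was at 0 in 2 of 7 libraries, where a count of 0 allows a level of up to 0.158 CPM (IVIG replicate 2) and 0.117 CPM (PBS replicate 3), taken as 3 counts of the total and covering counting error only.

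Cd274 had 10.0, 11.5 and 16.8 CPM in neutrophils, 0.779, 5.79 and 46.8 in monocytes, 26.2, 63.4 and 79.0 in skin, and 1.51, 2.59 and 4.21 in blood (24.5, 30.7 and 41.4 outside haemoglobin). The stimulated Ics libraries, from 284 to 505 CPM, were above all of these, and the unstimulated ones, from 25.8 to 39.6 CPM, overlapped skin and lay above the neutrophils. By library totals the order of medians was Ics 3 h, Ics 6 h, skin, Ics 0 h, neutrophil, monocyte and blood. Outside haemoglobin the blood median of 30.7 CPM came after that of Ics at 0 h (32.8), and the blood libraries lay above the neutrophils without overlap. Vsir followed another order, led by Ics at 0 h (1720 to 1780 CPM) and then Ics at 6 h (959 to 1080) and 3 h (846 to 980). It had 438, 781 and 914 CPM in neutrophils, 34.8, 289 and 593 in monocytes, 112, 142 and 233 in skin, and 5.53, 12.4 and 16.3 in blood (75.3, 141 and 170 outside haemoglobin). Neutrophils and monocytes overlapped for Vsir, and so did Ics at 6 h and 3 h. Lgals9 had its highest median in Ics at 0 h (136 CPM), with skin at 66.3, 123 and 163, neutrophils at 56.8, 84.0 and 89.1, and monocytes at 20.2, 39.8 and 67.7 CPM. In blood Lgals9 had 1.5, 3.83 and 5.4 CPM, or 20.4, 47.9 and 57.5 outside haemoglobin.

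Cd200r1 had 21.1, 38.9 and 48.8 CPM in skin, 9.34, 13.9 and 24.3 in neutrophils, 0, 6.47 and 15.4 in monocytes, and 0.0611, 0.145 and 0.439 in blood. Cd200r4 had 6.4, 10.2 and 12.9 CPM in skin, 1.41, 1.74 and 2.4 in neutrophils, 0, 1.62 and 2.74 in monocytes, and 0.0306, 0.152 and 0.282 in blood. For both receptor genes skin lay below the 6 h Ics libraries without overlap. For Cd200r4 it lay above the 3 h Ics libraries, and for Cd200r1 it overlapped them. Outside haemoglobin the blood medians were 1.68 CPM for Cd200r1 and 2.08 CPM for Cd200r4.

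Skin had the highest median of Cd83, Cd86 and Cd40, and the Ics libraries that of Cd80. Cd83 was led by skin at 31.1, 46.4 and 52.7 CPM, overlapping Ics at 3 h, and had 0.163, 3.15 and 11.1 in neutrophils, 0, 0.397 and 1.96 in monocytes, and 1.62, 3.14 and 5.36 in blood (26.7, 42.7 and 50.2 outside haemoglobin). Cd86 was led by skin at 16.8, 20.4 and 24.1 CPM and by monocytes at 0.273, 19.6 and 31.7, which overlapped, followed by Ics at 3 h and by neutrophils at 5.42, 7.16 and 8.9 CPM. In blood Cd86 had 0.44, 1.01 and 1.94 CPM, or 7.24, 11.6 and 18.3 outside haemoglobin, where its median was above that of Ics at 3 h. Cd80 was led by the 3 Ics times, from 26.7 to 48.8 CPM, with 7.74, 10.4 and 13.2 in neutrophils, 3.42, 8.38 and 10.6 in skin, 0, 7.16 and 14.0 in monocytes, and 0.0294, 0.11 and 0.252 in blood. Cd40 was led by skin at 11.1, 28.1 and 49.1 CPM, then monocytes at 0, 8.73 and 20.6 and neutrophils at 2.28, 5.71 and 7.18. In blood Cd40 had 0.602, 2.22 and 3.7 CPM, or 9.9, 23.9 and 55.4 outside haemoglobin, where its median was above that of monocytes. A monocyte library, PBS replicate 3 with 8984 genes of at least 5 counts, was at 0 for Havcr2, Cd200r1, Cd200r4, Cd83, Cd80 and Cd40. It also had 25.4 CPM of Csf1r, against 156 to 865 CPM in the 6 other monocyte libraries that passed.

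**Figure D3:**
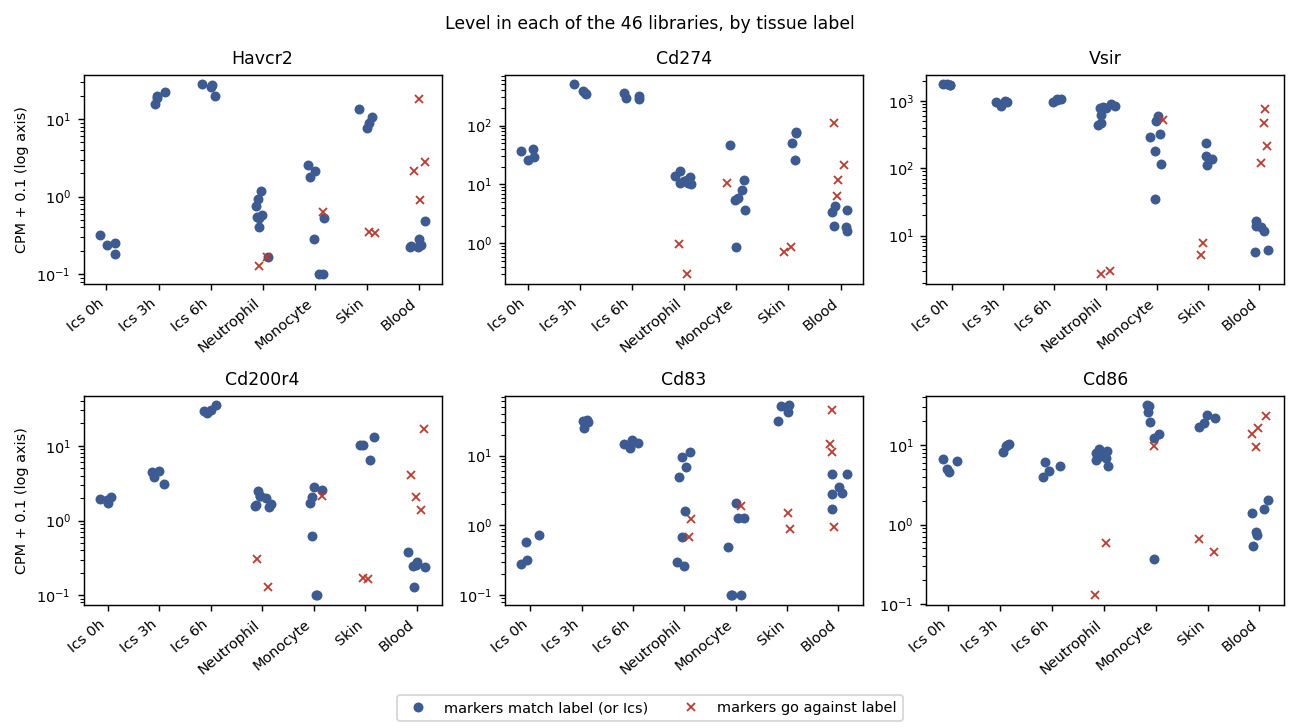
CPM + 0.1 on a log axis for 6 of the genes in all 46 libraries by tissue label, with circles for Ics libraries and those whose markers match the label and crosses for those whose markers go against it. For Cd274 and Vsir the crosses of blood, neutrophils and skin lie outside the circles of their own label.

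IVIG and PBS libraries were compared to ask whether the treatment changed these genes in the mice. No member passed the test in any of the 4 tissues. No gene was called by edgeR in blood (0% of 11339 tested), neutrophils (0% of 14033), monocytes (0% of 14415) or skin (0% of 16171). At an unadjusted p under 0.05 there were 81, 73, 286 and 157 genes, and DESeq2 called 7, 0, 7 and 3. The filter kept 8 of the 10 members in blood, where Cd200r4 and Cd80 were too low, and all 10 in the others. The treatment field of the labels contradicts the condition field that set the groups, and markers cannot check a treatment, so each direction holds for the names as deposited. The titles also give each library a series and an animal number, and 3 such pairs of numbers (series 3, animals 1, 2 and 5) belong to both IVIG and PBS libraries across tissues, the neutrophil library on one side each time. Whether a number stands for the same mouse in each tissue is not given.

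Over all libraries of each label, the largest difference of any member was that of Cd274 in monocytes, at 1.93 ± 0.81 (edgeR adjusted p = 0.9999, unadjusted p under 0.05). It had 8.06, 46.8 and 5.45 CPM in the 3 IVIG libraries and 10.7, 3.61, 0.779, 12.0 and 5.79 CPM in the 5 PBS libraries. The groups overlapped, and IVIG replicate 2 stood apart at 46.8 CPM. That library had the lowest total of all, 18965431 counts, and 11002 genes of at least 5 counts. It was at 0 for Havcr2, Cd200r4 and Cd83. Without it the difference was 0.38, and with the series number of the titles as a covariate it was 1.26 (edgeR adjusted p = 0.9669). In the other tissues Cd274 was at 0.50 ± 0.65 in blood, -0.39 ± 0.31 in neutrophils and -1.03 ± 0.50 in skin, each with an adjusted p of 0.9999 or 1 in edgeR. In neutrophils the members ranged from -0.78 to 0.23 and 2 of 10 were higher under IVIG, and in monocytes they ranged from -1.32 to 1.93 and 6 of 10 were higher. The medians over all genes tested were -0.016 in neutrophils and -0.073 in monocytes. Over the 4 and 4 neutrophil libraries with neutrophil markers the range was -0.67 to 0.22, and 0 of 10 had an unadjusted p under 0.05. Havcr2 was at 1.08 ± 0.84 in blood, where the mean rested on the library labelled IVIG replicate 3, which had skin markers and 18.2 CPM, and without it the value was -0.31. In neutrophils and monocytes Havcr2 was at -0.47 ± 0.66 and -0.75 ± 1.60, and with 1 library left out at -0.83 to -0.16 and at -2.54 to -0.16.

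In skin 9 of the 10 members were lower under IVIG, from -1.03 to 0.14, and 0 had an unadjusted p under 0.05. The median over all genes tested was 0.002. Only 2 IVIG and 2 PBS skin libraries had skin markers, and in these 9 of 10 were again lower, with an all-gene median of 0.017. There 5 had an unadjusted p under 0.05, all lower, against 4.3% of the 16934 genes tested that were lower at that limit, and 0 passed after adjustment. The 5 were Lgals9, Cd40, Cd274, Cd83 and Vsir. Lgals9 had 82.1 and 66.3 CPM under IVIG and 163 and 163 CPM under PBS, a difference of -1.22 ± 0.20 (edgeR adjusted p = 0.2203). Cd40 had 22.2 and 11.1 against 49.1 and 34.0 CPM, at -1.42 ± 0.36 (edgeR adjusted p = 0.3423). Cd274 had 50.8 and 26.2 against 79.0 and 76.0 CPM, at -1.11 ± 0.30 (edgeR adjusted p = 0.3701). Cd83 was at -0.58 ± 0.21 and Vsir at -0.72 ± 0.28, with edgeR adjusted p of 0.5215 and 0.5711. Havcr2 was at -0.61 ± 0.31 and Cd86 at 0.06 ± 0.26 (edgeR adjusted p = 0.7172 and 0.9934).

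Other features of these 4 skin libraries also differed. Csf1r, a macrophage gene, had 577 and 253 CPM under IVIG and 391 and 675 CPM under PBS, and Krt5 plus Krt14 of basal keratinocytes had 606 and 1575 against 1264 and 310 CPM. Neither value separated the groups. The 4 genes called in this comparison, named after their values were seen, were Krt25, Krt28, Krt71 and Tchh of the hair follicle's inner root sheath, all higher under IVIG (edgeR adjusted p = 0.021, 0.0398, 0.0159 and 0.0159). The part of hair follicle content in the members' values was not tested. In the 6 blood libraries with blood markers, Cd40 was at -0.99 ± 0.38 (edgeR adjusted p = 0.7404, unadjusted p under 0.05), with Cd274 at -0.21 ± 0.29.

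**Figure D4:**
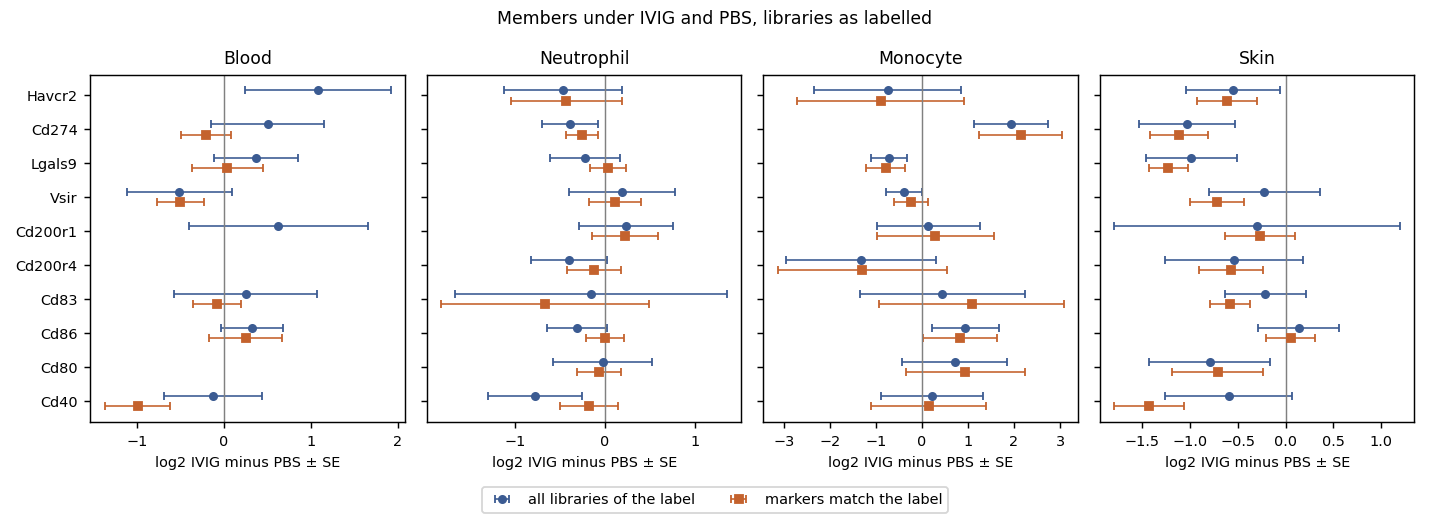
Log2 difference of IVIG minus PBS for each gene in each tissue with bars of 1 SE from edgeR, over all libraries of a label (circles) and over those whose markers match it (squares); genes under the filter have no point. In skin 9 of 10 squares lie below 0, and in monocytes Cd274 lies near 2 with wide bars.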

How the data were processed

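Bulk RNA of 46 libraries was analysed from 1 deposited table of estimated counts per gene symbol (length-scaled TPM, expected counts). Per the submitters' processing notes the tool was kallisto 0.46.1 and the build GRCm38, while the summing to genes, the scaling and any filter are not given in the sources used here. The deposited expected counts were rounded to whole numbers, and totals ran from 18965431 to 43176537 per library. No 2 libraries were identical (0 identical of 1035 pairs). Groups came from the titles and the tissue and condition fields.

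The members and the pathway lists were chosen with earlier results of these data known. The 3 Ics times were fitted together, and IVIG was compared with PBS within each tissue, by edgeR 4.0.16 (R 4.3.3; glmQLFTest, a quasi-likelihood test; TMM; filterByExpr with a minimum count of 10), with p-values adjusted by Benjamini-Hochberg across the whole tested table and a limit of 0.05. The SE was the log2 difference divided by the square root of F. CPM in the Ics account carry TMM factors, and CPM across tissues use totals. Genes named were the 10 members, up to 3 genes of each list in each Ics comparison by smallest p, and the 5 genes most correlated with Havcr2, Cd274 and Cd86. A few genes these rules or the marker lists hold are not reported here. Alternatives were DESeq2 1.42.0, RLE scaling, library totals alone, no filter, a replicate block, each library left out, the CD200 receptor family summed, only libraries whose markers match the label and, added after seeing the data, CPM outside haemoglobin and the title series as a covariate under IVIG. The procedure was tested on simulated data, but no outcome of that is given here, so it lends these results no support. Positions are from GENCODE vM21, promoters from RefSeq on GRCm38.p6.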

Additional observations from a re-analysis of the deposited data

Results flagged for a closer look

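For each member and each group of 4 or 5 libraries, the highest and lowest values were set against the spread of the rest. Of 80 such groups, 11 held a library that stood apart. Chance gives about 1 in 20 for independent values with a normal spread. These CPM are often low, and some groups mix libraries of different marker classes, so that rate need not hold here. The 11 values came from 7 libraries, 5 of which had markers that go against their label, and 1 of these gave 5 of the values, so they are not independent. Values are CPM by library totals.

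The library labelled blood IVIG replicate 3, which had skin markers, stood apart for 5 genes: Havcr2 at 18.2 (the next at 2.02), Cd274 at 109 (6.31), Cd200r1 at 47.5 (9.86), Cd200r4 at 16.8 (1.99) and Cd83 at 44.9 (11.1). The library labelled blood PBS replicate 2, also with skin markers, stood apart for Havcr2 at 2.68, and the one labelled blood PBS replicate 1, with neutrophil markers, for Vsir at 758 (the next at 119). The libraries labelled neutrophil IVIG replicate 5 and neutrophil PBS replicate 1, both with blood markers, were low for Cd274 at 0.202 and Cd86 at 0.479. In libraries whose markers match the label, Cd83 was at 11.1 in neutrophil IVIG replicate 4 (the next at 1.52) and Cd200r4 was at 0 in monocyte PBS replicate 3 (the next at 1.99).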

How the results depend on the processing

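Over 52 results and 745 alternative values, 8 reversed, 21 moved past the limit set for them and 716 did neither. That limit was 1 SD between libraries for the members in the Ics experiment, which carry no test, 1.5 times for counts of genes, and the side of the adjusted p limit for members under IVIG. In the Ics experiment 451 of 456 values of the members kept their direction. With library totals alone Cd80 at 3 h was -0.0873 and Cd86 at 6 h against 0 h was -0.1557, and leaving out 1 library took that Cd86 value from -0.0959 to 0.1005. In blood Cd274 under IVIG was -0.2099 over libraries whose markers match the label and -0.1616 to 0.7928 with 1 library left out, and Havcr2 was -0.3087 to 1.5928. Genes called under IVIG, 0 in edgeR, were 7 in blood, 7 in monocytes and 3 in skin with DESeq2 (in skin Fam177a2, Krt25 and Krt71, named after their values were seen). Over marker-matched libraries they were 5 in blood (Gm15501, Gm20716, Gm49393, Gm9385 and Rab11b-ps2, also named after their values were seen) and 4 in skin, and none of the genes called is a member. The Ics titles carry the same 4 replicate numbers at each time, but do not say what a number stands for. Libraries of 1 number deviated together only in part (r from 0.048 to 0.184, 8 of 12 pairs over 0.1). Pairs of different numbers had r from -0.098 to 0.017 (0 of 36 over 0.1), so each library correlated best with its own number. The main fit did not use the numbers. With a replicate block 8297, 9151 and 6354 genes were called in the 3 Ics comparisons, against 8163, 8999 and 6117, and 53, 52 and 45 list genes against 51, 51 and 44. With the block Havcr2 at 6 h against 3 h was 0.33 ± 0.11. No paired analysis was possible for IVIG because the groups share no labelled replicate numbers, but their titles share series numbers in blood, neutrophils and monocytes (all skin libraries are of series 5). With the series as a covariate, chosen after seeing the data, Cd274 under IVIG was 0.25, -0.39 and 1.26 in these 3 tissues, Havcr2 1.08, -0.89 and -1.14, and Cd86 0.33, -0.29 and 0.71, none past the limit (edgeR adjusted p of 0.9669 to 0.9998). Depth limits Havcr2 and Cd83 at 0 h and the low members in blood, and the marker-matched skin comparison had 2 libraries a group.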
